A study of Mus musculus with 12 samples.

Results

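Complex III, complex IV and ATP synthase of the mitochondrial inner membrane were followed at the RNA level in the mouse heart after endotoxin. Their genes were chosen by symbol: every GENCODE symbol of the mouse build GRCm38 that begins with Uqcr, Cox4, Cox5, Cox6, Cox7, Cox8, Atp5, mt-Co, mt-Cytb or mt-Atp, and cytochrome c1 (Cyc1) and cytochrome c (Cycs). Of 59 such symbols, 54 had values in all 12 libraries, among 12866 genes in all, and 51 were expressed enough to be tested, among 11509. All mice were wild-type (WT) C57BL/6, and 4 hearts were sequenced in each of 3 groups, 1 library per heart. Saline was given to Control mice. Mice of the LPS group were given lipopolysaccharide (LPS), the endotoxin of Gram-negative bacteria, at 10 mg/kg, with saline as the other treatment. LPS+XJDHT mice received the same dose of LPS and XJDHT, Xijiao Dihuang decoction, a Chinese herbal formula, at 50 mg/kg per day. Treatment lasted 3 days in every group. Neither the age nor the sex of the mice is given in the sources used here. The hearts were sequenced whole, so every value is an average over heart muscle cells and all other cells of the organ.

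Complex III takes electrons from ubiquinol and passes them through its Rieske iron-sulfur protein and cytochrome c1 to the small carrier cytochrome c. Complex IV, cytochrome c oxidase, hands them to oxygen, and both complexes pump protons across the inner membrane. ATP synthase lets the protons flow back through a ring of c subunits, whose rotation drives ATP production in the F1 head, while a peripheral stalk holds the head still. Most subunits are encoded in the nucleus, but cytochrome b (mt-Cytb), the catalytic core of complex IV (mt-Co1, mt-Co2, mt-Co3) and the ATP synthase subunits mt-Atp6 and mt-Atp8 are encoded in mitochondrial DNA. The heart depends on oxidative phosphorylation for most of its ATP, and several complex IV subunits have a heart and muscle isoform beside one found in most tissues.

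Expression is given in FPKM, fragments scaled to transcript length and library size, summed over the annotated transcripts of a gene. Fold changes are differences of mean log2(FPKM + 1), given with their SE, and adjusted p-values come from limma with Benjamini-Hochberg adjustment over all 11509 genes tested. A gene is said to rise or fall where that adjusted p was below 0.05. The unit is not named in the sources used here, and the values were read as FPKM. On that reading the libraries held 73.8 to 77.8 M fragments (M, mega), a size inferred from the values. Genes of the mitochondrial chromosome took 32.9% to 37.4% of the annotated fragments in Control, 28.4% to 32.8% in LPS and 29.2% to 32.5% in LPS+XJDHT. Summed FPKM of 14 cardiomyocyte markers was 25284 to 26337 in Control, 12649 to 15651 in LPS and 10752 to 15584 in LPS+XJDHT, and 8 of the 13 markers tested fell after LPS. Summed FPKM of 7 neutrophil markers went the other way, from 1.04 to 2.73 in Control to 79.1 to 117 in LPS and 75.6 to 152 in LPS+XJDHT, and all 5 tested rose after LPS. Summed markers were higher in each LPS library than in each Control library for fibroblasts (803 to 1059 against 470.5 to 593) and endothelium (1274 to 1782 against 1019 to 1052), and lower for red cells (238 to 803 against 1275 to 1379). The single markers were mixed. Of 8 fibroblast markers tested, 4 rose and 1 fell after LPS, and 3 had a log2 fold change below 0. Of 8 endothelial markers, 2 rose and 0 fell, and 4 had a log2 fold change below 0. Of 5 red cell markers tested, 3 fell. Summed monocyte and macrophage markers overlapped, at 143 to 216 in Control and 158 to 389 in LPS. Of the 11 tested, 3 rose and 0 fell after LPS, and 10 had a log2 fold change above 0. Of 8 small intestine markers tested, 7 rose after LPS and 6 fell in LPS+XJDHT against LPS, with sums of 3.11 to 10.5 FPKM in Control, 23.3 to 28.6 in LPS and 4.75 to 7.30 in LPS+XJDHT. The part of these shifts in the results below was not tested, and in whole tissue fewer cells of a type and less RNA per cell cannot be told apart. LPS+XJDHT replicate 2 stood apart by its Y-linked RNA, which summed to 0.205 FPKM against 20.4 to 61.9 FPKM in the other 11 libraries, and counts of members called are given with and without it. The 4 LPS+XJDHT files list another set of transcripts than the 8 Control and LPS files, and the 160 member transcripts found in both sets were used. The file set coincides with the XJDHT treatment, so in comparisons of LPS+XJDHT with either group they cannot be told apart.

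After LPS, genes of all 3 complexes fell, from the Rieske protein of complex III to the c ring of ATP synthase. Of the 51 members tested, 31 fell and 1, Cox6a1, rose, while 12.03% of all genes tested fell and 26.6% rose. Among the 856 genes that averaged at least 50 FPKM, which are closer to the members in level, 23.2% fell and 41.9% rose. The median log2 fold change of the members was -0.29, against 0.16 over all genes tested. Of the 51 members 45 lay below 0, as did 38.2% of all genes tested. In 35 members every LPS library was lower than every Control library, which held for 12.1% of all genes, and in 1 member every LPS library was higher, which held for 25.3%. The falls were moderate: summed over 9 nuclear genes of complex III, expression went from 3116 ± 60.3 to 2493 ± 123 FPKM, over 16 of complex IV from 6786 ± 326 to 5791 ± 351 FPKM and over 17 of ATP synthase from 9425 ± 192 to 7710 ± 395 FPKM (SD, n = 4). In each of these sums the lowest Control library lay above the highest LPS library. Of the 32 calls, 23 also passed without each library in turn, and all 32 passed without LPS+XJDHT replicate 2. Scaling the libraries by the median ratio over genes moved the median of all genes from 0.16 to 0.01. Under it 43 members fell and 0 rose, while 18.4% of all genes fell and 18.6% rose. The members that fell under this scaling and not without it were Atp5b, Atp5d, Atp5f1, Atp5g2, Atp5k-ps2, Cox6c, Cox6c2, Cox7b, mt-Atp8, Uqcr10, Uqcr11 and Uqcrq (adjusted p = 0.00059 to 0.04).

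**Figure D1:**
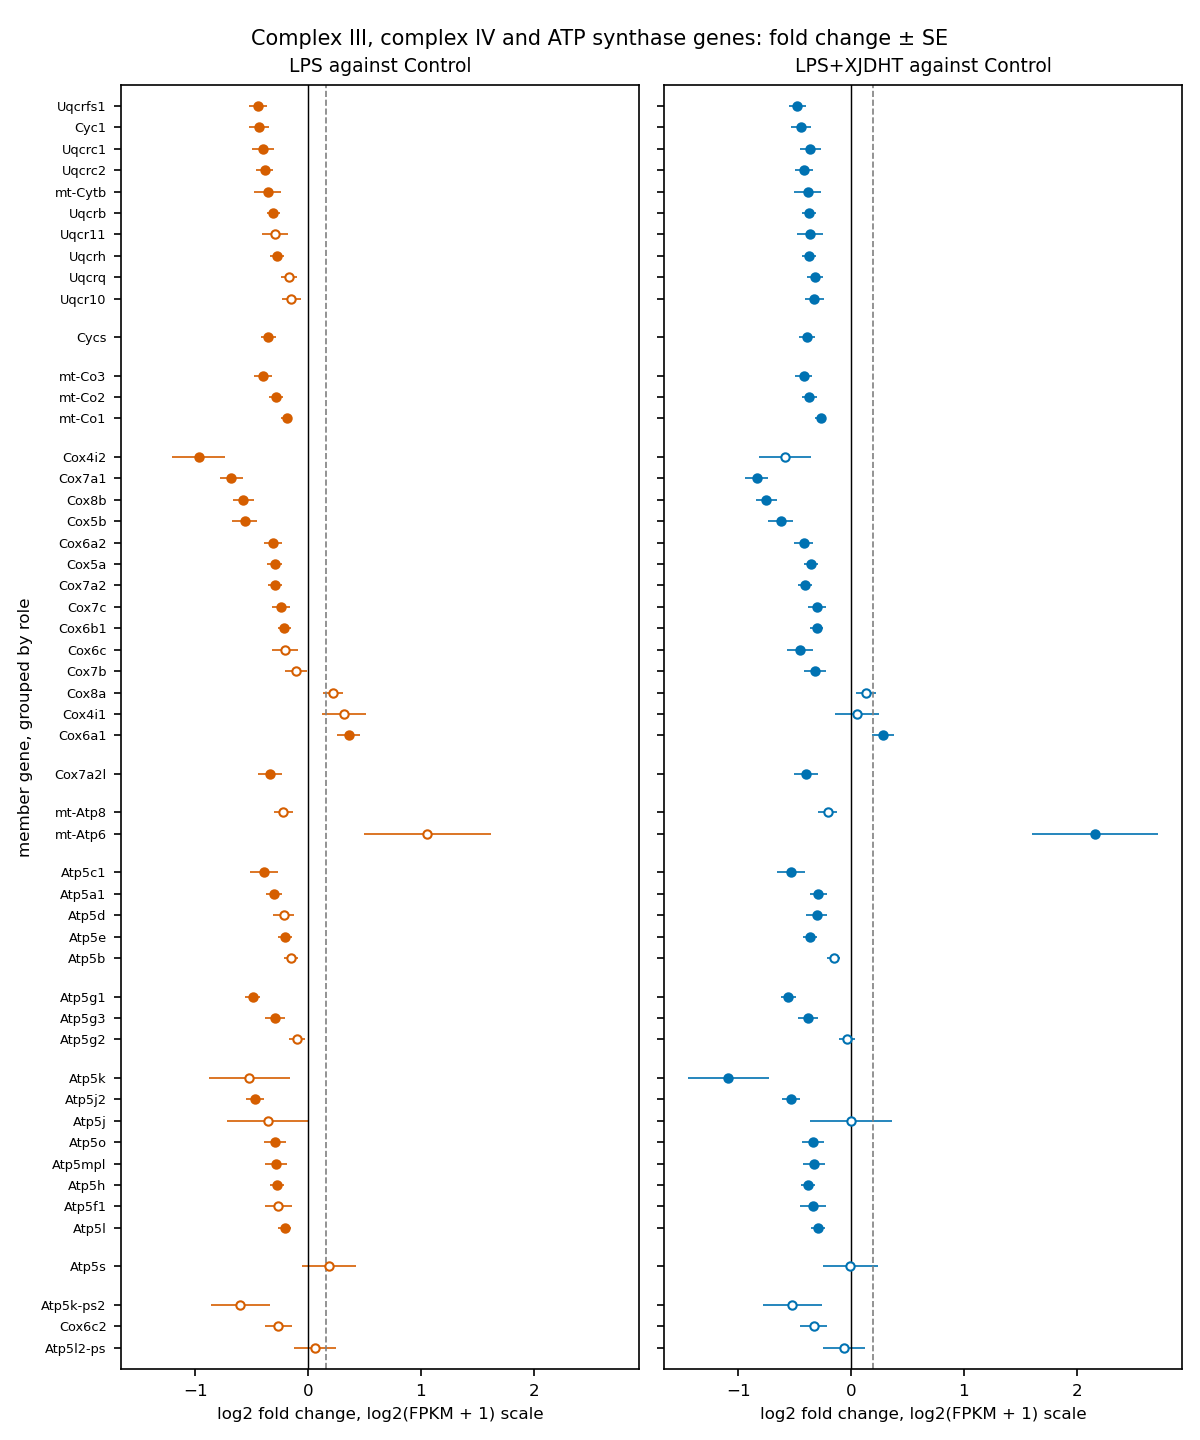
Log2 fold change (log2(FPKM + 1) scale) of the 51 tested members after LPS (left) and after LPS with XJDHT (right), each against Control. Points are limma estimates with bars of 1 SE, filled where the adjusted p was below 0.05, grouped by role from complex III at the top to processed pseudogenes at the bottom; the dashed line is the median of all genes tested (0.16 and 0.19). Most points lie left of 0. Cox6a1, mt-Atp6, Cox4i1 and Cox8a lie on the right in both panels, and Atp5s and Atp5l2-ps in the left panel only.

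All 10 complex III genes had a lower mean after LPS, and 7 of them fell. Uqcrfs1, the Rieske iron-sulfur protein (chr13:30540308-30545362), was at 348, 370.0, 375 and 379 FPKM in Control, 249.9, 265, 283 and 284 FPKM in LPS, and 292, 284, 244 and 241 FPKM in LPS+XJDHT. Every LPS heart was below every Control heart, and the fall was log2 fold change -0.45 ± 0.08, adjusted p = 0.00098. Cyc1, the cytochrome c1 heme protein (chr15:76343523-76346260), showed the same separation, with 212, 227, 238 and 227 FPKM in Control, 161, 165, 177 and 164 FPKM in LPS, and 178, 191, 147 and 152 FPKM in LPS+XJDHT (log2 fold change -0.44 ± 0.09, adjusted p = 0.0021). Uqcrb, a small subunit near the ubiquinone site, was at 532, 549, 494 and 490.5 FPKM in Control, 387, 432, 428 and 422 FPKM in LPS, and 410.1, 401, 394 and 384 FPKM in LPS+XJDHT (log2 fold change -0.31 ± 0.06, adjusted p = 0.0021). Both core proteins fell as well, as Uqcrc1 fell by 24.4% and Uqcrc2 fell by 23.1% of the Control mean, and Uqcrh, the hinge protein that helps cytochrome c1 meet cytochrome c, fell by 17.3%. The small subunits Uqcrq, Uqcr10 and Uqcr11 did not pass after LPS, with adjusted p of 0.087, 0.18 and 0.067. Uqcrq was at 169.7, 178, 167 and 167 FPKM in Control, 144, 152, 156 and 156 FPKM in LPS, and 137, 148, 120.4 and 139.5 FPKM in LPS+XJDHT, so its LPS libraries lay below its Control libraries by a narrow margin. mt-Cytb, the one complex III subunit encoded in mitochondrial DNA, was at 28152, 29807, 27891 and 25741 FPKM in Control, 18003, 20829, 24505 and 24364 FPKM in LPS, and 17267, 22384, 24409 and 22041 FPKM in LPS+XJDHT. Its 4 LPS values spread more widely than those of the nuclear genes, and its fall (log2 fold change -0.36 ± 0.12, adjusted p = 0.033) was not stable. It did not pass with sample quality weights (adjusted p = 0.062) or without Control replicate 1, 2 or 3 or LPS replicate 1 or 2 (adjusted p = 0.065 to 0.091). All 10 genes fell in LPS+XJDHT against Control, with log2 fold changes from -0.48 to -0.32. Of these, Uqcr11 did not pass without Control replicate 1 or 2 or LPS+XJDHT replicate 3 or 4, and mt-Cytb without Control replicate 1 or 2 or LPS+XJDHT replicate 1 (adjusted p = 0.052 to 0.076). In its most abundant transcript alone Uqcr11 did not pass either (log2 fold change -0.20, adjusted p = 0.41).

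Cytochrome c, the mobile carrier between complexes III and IV, followed complex III. Cycs (chr6:50562563-50566538) was at 189.7, 184, 181 and 184 FPKM in Control, 135, 154, 141 and 149.6 FPKM in LPS, and 150.2, 150.2, 132 and 131 FPKM in LPS+XJDHT and fell after LPS (log2 fold change -0.35 ± 0.07, adjusted p = 0.0023). Cox7a2l, studied for a part in supercomplexes of complexes III and IV, was at 138, 132, 131 and 137 FPKM in Control, 103, 84.9, 123 and 119 FPKM in LPS, and 106, 91.3, 104 and 105 FPKM in LPS+XJDHT. Whether it has this part in the mouse strain used here was not tested. Its LPS libraries were all below Control, but the fall (log2 fold change -0.33 ± 0.11, adjusted p = 0.028) did not pass without Control replicate 1 or 4 or LPS replicate 1 (adjusted p = 0.061 to 0.064) or in a fit of the compared groups alone (adjusted p = 0.055). It fell in LPS+XJDHT against Control under every alternative (log2 fold change -0.40, adjusted p = 0.011).

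The 3 catalytic subunits of complex IV encoded in mitochondrial DNA all fell after LPS. mt-Co1, which carries the heme a and a3 groups and is the most abundant member at 76521 ± 4058 FPKM in Control (SD, n = 4), was at 79750.5, 79321, 76052 and 70961 FPKM in Control, 63302, 67510.2, 69913 and 67688 FPKM in LPS, and 62866, 63067, 63555 and 64304 FPKM in LPS+XJDHT. Every Control library was above every treated library, and the change was log2 fold change -0.19 ± 0.05, adjusted p = 0.011. mt-Co2, which accepts electrons from cytochrome c, was at 28963, 31571, 27436 and 25866 FPKM in Control, 22499, 23327, 24590.3 and 22981 FPKM in LPS, and 20613, 21759, 22896 and 22686 FPKM in LPS+XJDHT (log2 fold change -0.28 ± 0.07, adjusted p = 0.0052). mt-Co3 was at 23655, 24624, 21755 and 20652 FPKM in Control, 15712, 17125, 18542 and 17347 FPKM in LPS, and 15178, 17121, 18261 and 17249 FPKM in LPS+XJDHT (log2 fold change -0.40 ± 0.08, adjusted p = 0.0018). In LPS+XJDHT against Control their log2 fold changes were -0.27, -0.37 and -0.42, and all passed. Their levels stood far above those of the nuclear members, of which 40 averaged at least 50 FPKM in Control, with a median of 410.05 and a highest mean of 1629 FPKM in Atp5b.

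**Figure D2:**
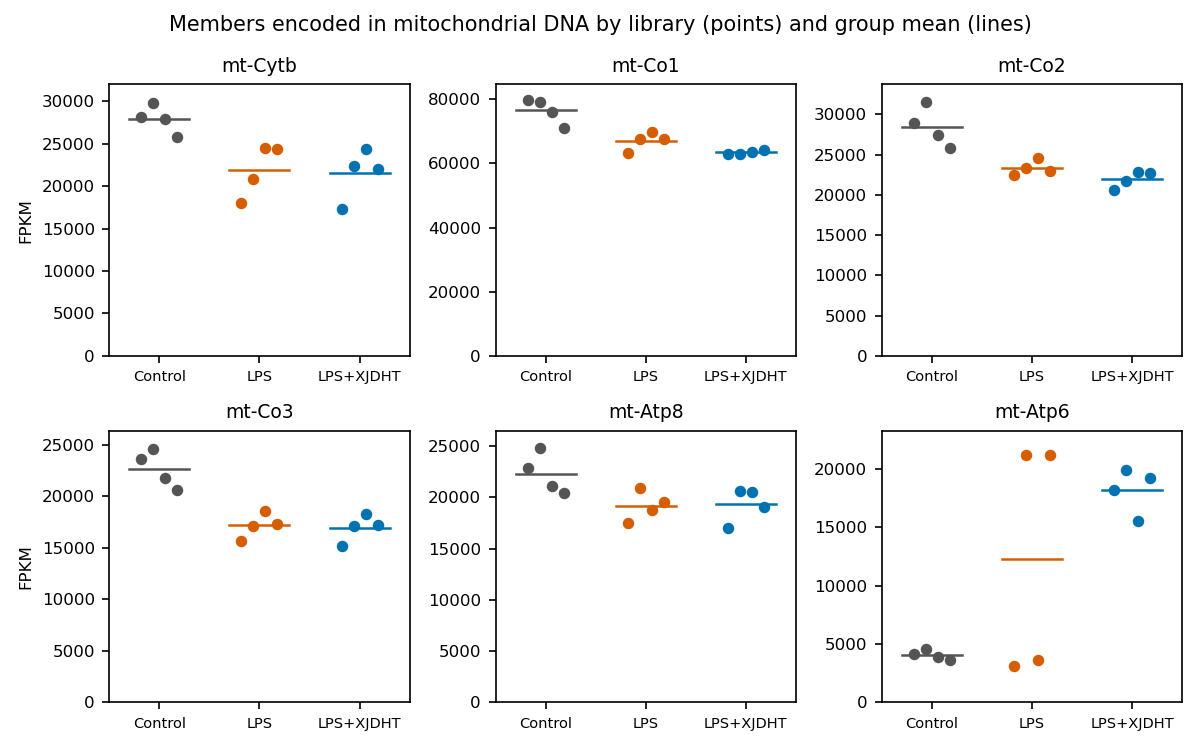
Expression in FPKM of the 6 members encoded in mitochondrial DNA. Points are libraries and lines are means of 4 libraries in Control, LPS and LPS+XJDHT. In mt-Co1, mt-Co2, mt-Co3 and mt-Cytb the Control libraries lie above all others, while mt-Atp6 has 6 low and 6 high libraries that do not follow the other genes.

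Of the 14 nuclear genes of complex IV tested, 9 fell and 1 rose after LPS, and the heart and muscle isoforms were among those that fell. Cox7a1, the heart and muscle isoform of subunit VIIa (chr7:30184144-30186078), was at 706, 878, 698 and 676 FPKM in Control, 401, 454, 459 and 527 FPKM in LPS, and 449, 418, 387 and 397 FPKM in LPS+XJDHT. The highest LPS value was below the lowest Control value, and Cox7a1 had the smallest p of the nuclear complex IV genes (log2 fold change -0.68 ± 0.10, adjusted p = 0.00032). Cox7a2, its counterpart in most tissues, also fell, with a smaller fold change, and was at 299, 300.0, 295 and 287 FPKM in Control, 222, 259, 235 and 248 FPKM in LPS, and 236, 216, 221 and 215 FPKM in LPS+XJDHT (log2 fold change -0.29 ± 0.06, adjusted p = 0.0034). Cox8b, the heart and muscle isoform of subunit VIII, was at 507, 571, 461 and 449 FPKM in Control, 287, 338, 353 and 357 FPKM in LPS, and 290.0, 315, 292 and 277 FPKM in LPS+XJDHT (log2 fold change -0.57 ± 0.09, adjusted p = 0.00061). Cox8a, the form of most tissues, was at 104, 117, 96.7 and 105 FPKM in Control, 119, 115, 123 and 135 FPKM in LPS, and 121, 123, 101 and 116 FPKM in LPS+XJDHT. Its groups overlapped, and the higher mean after LPS did not pass (log2 fold change 0.22 ± 0.09, adjusted p = 0.068), although it did without Control replicate 2 (adjusted p = 0.038), with sample quality weights (adjusted p = 0.03) and, just below the threshold, without LPS+XJDHT replicate 3.

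Subunit VIa showed opposite calls in its isoforms. Cox6a2, of heart and muscle, was at 1152, 1123, 1057 and 1059 FPKM in Control, 779.8, 846, 1015 and 922 FPKM in LPS, and 787, 776, 843 and 872 FPKM in LPS+XJDHT and fell (log2 fold change -0.31 ± 0.08, adjusted p = 0.011). Cox6a1, found in most tissues (chr5:115345642-115348981), was at 78.9, 78.4, 75.2 and 88.0 FPKM in Control, 103, 93.0, 105 and 112 FPKM in LPS, and 98.1, 117, 90.6 and 87.7 FPKM in LPS+XJDHT and was the one member that rose (log2 fold change 0.36 ± 0.10, adjusted p = 0.013). All 4 LPS hearts lay above all 4 Control hearts in Cox6a1. With median-ratio scaling its log2 fold change was 0.16 and did not pass (adjusted p = 0.18). In LPS+XJDHT against Control its groups overlapped by a narrow margin, and its call (log2 fold change 0.29, adjusted p = 0.039) did not pass with median-ratio scaling (0.04, adjusted p = 0.75), with limma-voom on recovered fragments (adjusted p = 0.055), or without Control replicate 1, 2 or 3 or LPS+XJDHT replicate 1 or 2 (adjusted p = 0.077 to 0.098).

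Subunit IV has a main form, Cox4i1, and a second form, Cox4i2, known from lung and from low oxygen. Cox4i1 was at 778, 606, 829 and 648 FPKM in Control, 891, 698, 1031 and 957 FPKM in LPS, and 508, 969.5, 682 and 874 FPKM in LPS+XJDHT. Its libraries varied within each group and its groups overlapped (log2 fold change 0.32 ± 0.19, adjusted p = 0.22). Cox4i2 was scarce, at 6.62, 7.27, 7.10 and 7.26 FPKM in Control, 4.38, 1.54, 4.03 and 3.17 FPKM in LPS, and 4.30, 5.30, 5.51 and 2.81 FPKM in LPS+XJDHT. It had the lowest fold change of all members after LPS (log2 fold change -0.97 ± 0.23, adjusted p = 0.0065), and its LPS+XJDHT values lay between 2.81 and 5.51 FPKM, below Control without passing against it (adjusted p = 0.065).

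Ratios of isoforms within a library do not depend on how libraries are scaled. The ratio of Cox6a1 to Cox6a2 was 0.0685, 0.0699, 0.0711 and 0.0831 in Control, 0.132, 0.110, 0.103 and 0.122 in LPS, and 0.125, 0.151, 0.107 and 0.101 in LPS+XJDHT. The ratio of Cox7a2 to Cox7a1 was 0.424, 0.342, 0.422 and 0.424 in Control, 0.554, 0.570, 0.513 and 0.471 in LPS, and 0.527, 0.517, 0.570 and 0.542 in LPS+XJDHT. For Cox8a to Cox8b it was 0.204, 0.206, 0.210 and 0.233 in Control, 0.414, 0.339, 0.350 and 0.378 in LPS, and 0.418, 0.391, 0.347 and 0.420 in LPS+XJDHT. In these 3 pairs the form of most tissues took a larger share beside the heart and muscle form in every LPS and every LPS+XJDHT library than in every Control library, and LPS and LPS+XJDHT overlapped. The ratio of Cox4i2 to Cox4i1 was 0.00851, 0.0120, 0.00856 and 0.0112 in Control, 0.00491, 0.00221, 0.00391 and 0.00331 in LPS, and 0.00847, 0.00547, 0.00809 and 0.00321 in LPS+XJDHT, lower in every treated library than in every Control library. These ratios are a description, and whether a shift in cell types, such as the marker sums above show, has a part in them was not tested.

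**Figure D3:**
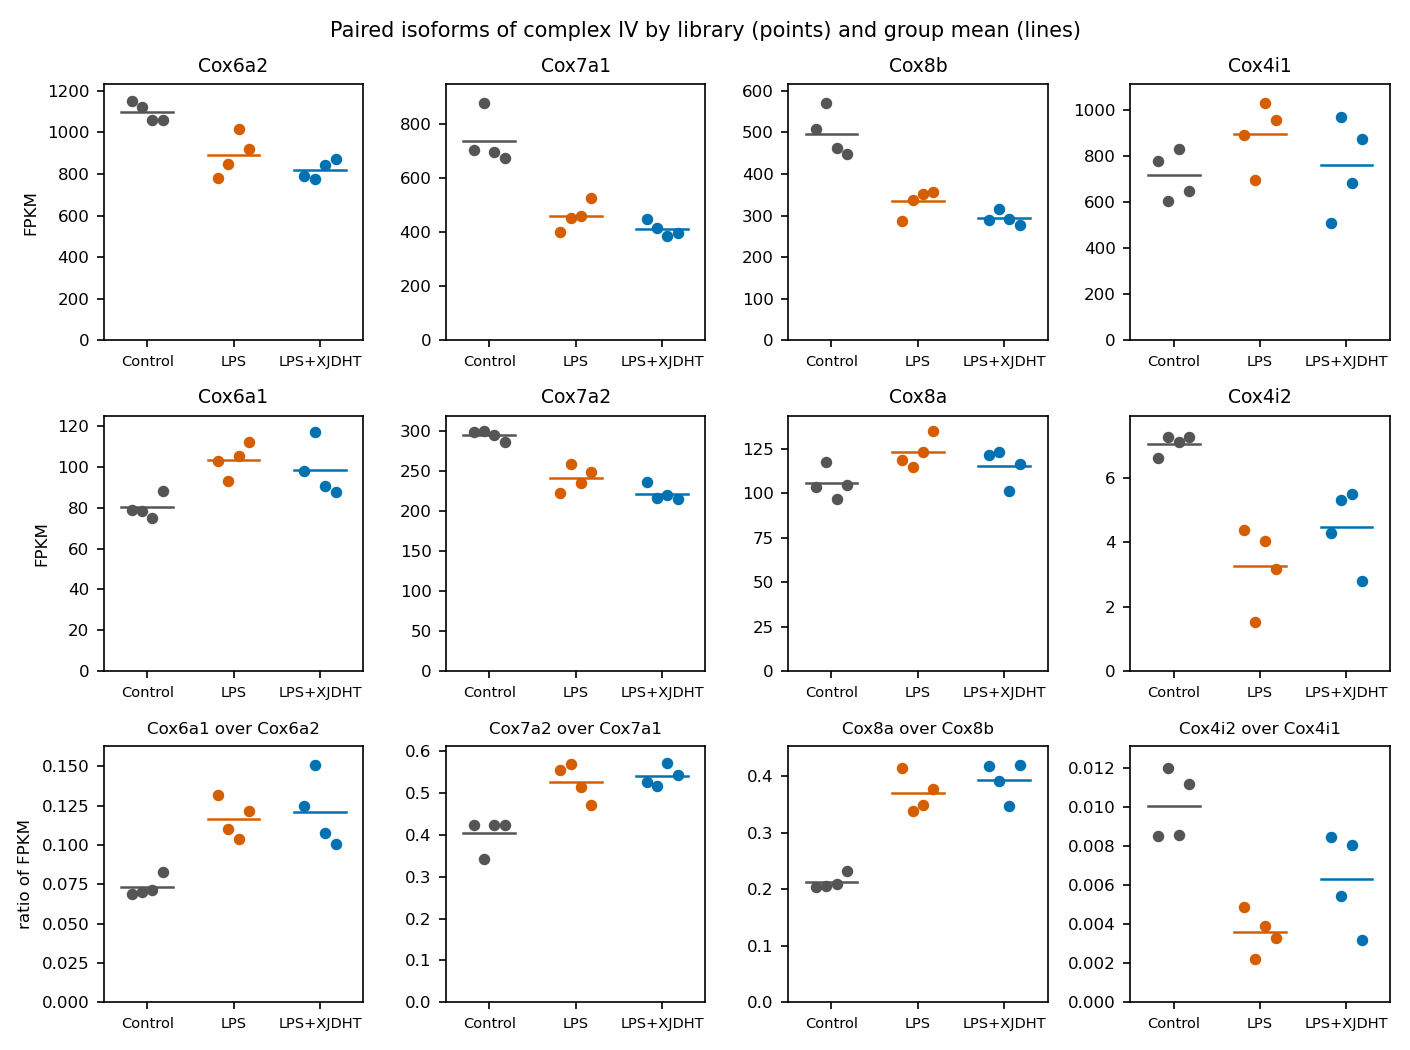
Expression in FPKM of 4 isoform pairs of complex IV (upper and middle rows) and their ratio in each library (lower row). Points are libraries and lines are means of 4 libraries per group. The ratios of Cox6a1 to Cox6a2, Cox7a2 to Cox7a1 and Cox8a to Cox8b are higher in all 8 treated libraries than in the 4 Control libraries.

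The sequences before the starts of these isoform genes are shown because the pairs moved apart, and they differ in how many CpG dinucleotides they hold. Each is the stretch of 150 bases before the RefSeq transcript start in build GRCm38.p6, 5′ to 3′ on the gene's strand, with CpG dinucleotides in capitals. A RefSeq sequence was matched for 30 of the 51 members tested. None was matched for Cox6a2, the heart and muscle counterpart of Cox6a1, or for Cox4i1 and Cox4i2, so these pairs could not be compared. Cox8b and Cox7a1, heart and muscle forms that fell, come first.
Cox8b promoter, chr7:140900447-140900596, minus strand: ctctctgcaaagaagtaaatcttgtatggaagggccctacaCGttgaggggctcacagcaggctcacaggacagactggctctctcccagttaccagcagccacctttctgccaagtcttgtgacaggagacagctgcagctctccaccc
Cox7a1 promoter, chr7:30184021-30184170, plus strand: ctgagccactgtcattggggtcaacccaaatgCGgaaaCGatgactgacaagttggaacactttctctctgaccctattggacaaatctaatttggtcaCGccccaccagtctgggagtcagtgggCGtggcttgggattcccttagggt
Cox7a2 promoter, chr9:79759854-79760003, minus strand: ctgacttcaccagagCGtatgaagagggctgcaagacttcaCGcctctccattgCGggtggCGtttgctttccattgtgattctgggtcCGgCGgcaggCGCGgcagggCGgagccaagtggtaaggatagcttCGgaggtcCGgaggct
Cox8a promoter, chr19:7217617-7217766, minus strand: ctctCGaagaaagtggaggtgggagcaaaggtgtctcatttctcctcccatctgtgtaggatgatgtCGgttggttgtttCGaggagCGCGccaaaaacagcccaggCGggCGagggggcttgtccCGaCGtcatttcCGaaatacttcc
Cox6a1 promoter, chr5:115348959-115349108, minus strand: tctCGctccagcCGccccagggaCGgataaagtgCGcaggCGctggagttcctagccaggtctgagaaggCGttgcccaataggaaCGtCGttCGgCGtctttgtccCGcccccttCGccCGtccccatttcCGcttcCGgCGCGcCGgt
The Cox8b stretch holds 1 CpG, and 5.42% of the 9177 genes with such a sequence hold as few. These are taken from all 12866 genes with values in all 12 libraries, tested or not. Cox7a1 holds 4 (16.9% of genes), Cox8a 10 (45.3%), Cox7a2 11 (51.4%) and Cox6a1 18 (84.2%). Over the 30 tested members with a RefSeq sequence the median was 10, against 11 over all these genes, and 3 other members, Atp5l, Cox7b and Uqcr10, hold 3 each, so a low count was found outside the heart and muscle isoforms too. Over the 250 bases before the start, searched on both strands, the core of the NRF1 site, GCATGCG, was present in 6 of the 30 members, or 20% against 5.72% of genes, namely Cox6a1, Cycs, Atp5g2, Atp5j, Atp5k and Atp5l. The core of the ETS family site, CCGGAAG, was in 8 of 30 (26.7% against 14.5% of genes), the YY1 core AAGATGG in 1 (3.33% against 4.24%), the ERR site AAGGTCA in 2 (6.67% against 2.53%), CANNTG, the E-box, in 19 (63.3% against 56.1%) and TATAAA in 1 (3.33% against 6.78%). The motifs were searched separately and can overlap, and these matches of letters are descriptions with no test. The RefSeq start used for Atp5j, which held the NRF1, ETS and YY1 cores, lay 3369 bases from the start of its most abundant transcript. That distance was 818 bases for Atp5d and 521 for Atp5j2.

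The other complex IV subunits encoded in the nucleus mostly fell together. Cox5a, next to the core, fell by 18.7% of the Control mean and Cox6b1, which faces the intermembrane space, fell by 13.6%. Cox7c fell by 15.3%. It did not pass when Control replicate 1 or 2 or LPS replicate 1, 3 or 4 was left out (adjusted p = 0.059 to 0.095) or in a fit of the compared groups alone (adjusted p = 0.06). Cox6c (log2 fold change -0.21 ± 0.11, adjusted p = 0.18) and Cox7b (log2 fold change -0.10 ± 0.10, adjusted p = 0.43) did not pass. Cox7b was at 466, 561, 416 and 497 FPKM in Control, 419, 467, 453 and 455 FPKM in LPS, and 431, 405, 365 and 346 FPKM in LPS+XJDHT, and its lowest Control library lay below all 4 LPS libraries.

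The fall of Cox5b, a zinc-binding subunit (chr1:36691449-36693681), depended on how its transcripts were added up. Its sum was at 298, 347, 248 and 339 FPKM in Control, 174, 206, 228 and 222 FPKM in LPS, and 191, 209.9, 198 and 192 FPKM in LPS+XJDHT and fell (log2 fold change -0.56 ± 0.11, adjusted p = 0.0024). The transcript ENSMUST00000193210 made up 78.1% of it on average and was at 159.6, 129.7, 242 and 116 FPKM in Control, 170.2, 202, 222 and 219 FPKM in LPS, and 186, 203, 193 and 186 FPKM in LPS+XJDHT. The shorter transcript ENSMUST00000081180 was at 134, 214, 1.50 and 219 FPKM in Control, 0.807, 1.40, 0.806 and 0.432 FPKM in LPS, and 2.15, 1.99, 1.36 and 1.77 FPKM in LPS+XJDHT. So 3 of the 4 Control libraries held much of their Cox5b in the shorter transcript, and the other 9 libraries nearly none. For the most abundant transcript alone the log2 fold change was 0.38 after LPS (adjusted p = 0.15) and 0.30 in LPS+XJDHT against Control (adjusted p = 0.25), opposite in sign to the sums (-0.56 and -0.62). The 2 transcripts come from 1 gene, and how fragments were shared between them in the authors' quantification is not given in the sources used here.

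**Figure D4:**
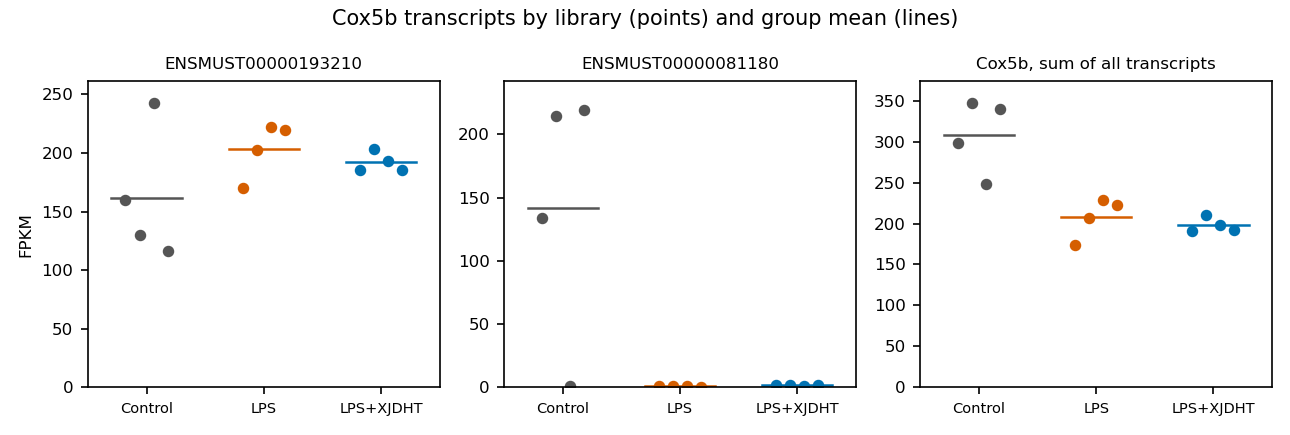
Expression in FPKM of the 2 main Cox5b transcripts and of the sum over all Cox5b transcripts. Points are libraries and lines are means of 4 libraries per group. ENSMUST00000081180 is above 100 FPKM in 3 Control libraries and near 0 in the other 9 libraries.

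In ATP synthase, 10 of 19 genes fell after LPS and none rose. In the F1 head, Atp5a1, the alpha subunit, was at 1070.4, 1070.4, 1155 and 1178 FPKM in Control, 908, 859, 912 and 948 FPKM in LPS, and 1000.3, 991, 848 and 831 FPKM in LPS+XJDHT (log2 fold change -0.30 ± 0.07, adjusted p = 0.0073). The gamma subunit Atp5c1, the rotor shaft, was at 697, 683, 679 and 658 FPKM in Control, 406, 515, 617 and 560.3 FPKM in LPS, and 432, 494, 554 and 414 FPKM in LPS+XJDHT. Its Control libraries were close together and the treated ones were spread out (log2 fold change -0.39 ± 0.12, adjusted p = 0.027). It did not pass when Control replicate 1, 2 or 3 or LPS replicate 1 or 2 was left out (adjusted p = 0.053 to 0.063) or, with a value just above the threshold, in its most abundant transcript. The epsilon subunit Atp5e was at 409, 429, 393 and 382 FPKM in Control, 324, 342, 367 and 368 FPKM in LPS, and 315, 304, 317 and 312 FPKM in LPS+XJDHT (log2 fold change -0.20 ± 0.06, adjusted p = 0.022). It did not pass when Control replicate 1 or 2 or LPS replicate 1 was left out (adjusted p = 0.056 to 0.061) or in a fit of the compared groups alone (adjusted p = 0.054). The catalytic beta subunit Atp5b, with the highest level of the nuclear members, did not pass: its 4 LPS libraries, at 1395 to 1542 FPKM, lay just below its Control libraries, at 1547 to 1713 FPKM (log2 fold change -0.15 ± 0.06, adjusted p = 0.066). The delta subunit Atp5d was likewise lower in every LPS library without passing (log2 fold change -0.22 ± 0.09, adjusted p = 0.082).

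The c ring is built from identical mature proteins made by Atp5g1, Atp5g2 and Atp5g3, and 2 of the 3 genes fell. Atp5g1 (chr11:96068852-96075670) was at 1006, 1058, 1006 and 975 FPKM in Control, 642, 728, 767 and 748 FPKM in LPS, and 721, 725, 652 and 655 FPKM in LPS+XJDHT and had the smallest p of all members after LPS (log2 fold change -0.49 ± 0.07, adjusted p = 0.00022). Atp5g3 was at 918, 948, 954 and 969 FPKM in Control, 755, 781, 802 and 758 FPKM in LPS, and 794, 849, 651 and 635 FPKM in LPS+XJDHT and fell (log2 fold change -0.29 ± 0.09, adjusted p = 0.021). It did not pass when Control replicate 4 or LPS replicate 1 was left out (adjusted p = 0.051 for each). Atp5g2, the least abundant, was at 182, 183, 188 and 193 FPKM in Control, 156, 168, 192 and 185 FPKM in LPS, and 186, 179.8, 188 and 174 FPKM in LPS+XJDHT. Its groups overlapped (log2 fold change -0.10 ± 0.07, adjusted p = 0.32), and with median-ratio scaling it fell (adjusted p = 0.014). The differences between the 3 genes were not tested.

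Of 8 genes of the peripheral stalk and membrane part, 5 fell after LPS. Atp5j2, subunit f of the membrane part, was at 407, 432, 366 and 360.5 FPKM in Control, 249, 309, 279.8 and 293 FPKM in LPS, and 276, 262, 276 and 265 FPKM in LPS+XJDHT (log2 fold change -0.47 ± 0.08, adjusted p = 0.00088). Atp5h, subunit d of the stalk, was at 748, 767, 722 and 697 FPKM in Control, 565, 582, 648 and 628 FPKM in LPS, and 574, 591, 552 and 533 FPKM in LPS+XJDHT (log2 fold change -0.28 ± 0.06, adjusted p = 0.0046). Atp5l, subunit g, was at 467, 467, 419 and 443 FPKM in Control, 365, 388, 404 and 398 FPKM in LPS, and 377, 373, 366 and 349.6 FPKM in LPS+XJDHT (log2 fold change -0.21 ± 0.06, adjusted p = 0.016), with an adjusted p of 0.052 without Control replicate 1. The other calls were less stable. Atp5o, the OSCP protein that links stalk and head, fell by 18.4% of the Control mean and Atp5mpl, a small membrane protein, fell by 17.9%. Atp5o did not pass without Control replicate 2, 3 or 4 or LPS replicate 1, 2 or 4, and Atp5mpl not without Control replicate 1 or 2 or LPS replicate 1 or 3 (adjusted p = 0.061 to 0.095). Atp5o also did not pass with limma-voom on recovered fragments (adjusted p = 0.062) or in its most abundant transcript (log2 fold change -0.16, adjusted p = 0.37). Subunit b, Atp5f1, was at 348 to 424 FPKM in Control and 252 to 351 FPKM in LPS and did not pass (log2 fold change -0.26 ± 0.12, adjusted p = 0.097). Another 2 genes were chosen after their values were seen, for their spread. Atp5k, subunit e, was at 203, 264, 201 and 175 FPKM in Control, 128, 154, 154 and 146 FPKM in LPS, and 125, 147, 136 and 35.9 FPKM in LPS+XJDHT. LPS+XJDHT replicate 4 was far below the other LPS+XJDHT libraries, and the LPS libraries were all below Control without passing (log2 fold change -0.52 ± 0.36, adjusted p = 0.28). In LPS against Control it passed without that library (adjusted p = 0.007) or in a fit of LPS and Control alone (adjusted p = 0.014). Atp5j, coupling factor 6, was at 112, 263, 136 and 96.7 FPKM in Control, 79.7, 107, 94.6 and 176 FPKM in LPS, and 75.6, 177, 153 and 186 FPKM in LPS+XJDHT and showed no order between groups (log2 fold change -0.36 ± 0.36, adjusted p = 0.47), and its largest transcript on average was one that keeps an intron, ENSMUST00000146103.

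mt-Atp6, which forms the proton channel with the c ring, did not follow any other member. It was at 4119, 4598, 3927 and 3617 FPKM in Control, 3103, 21197, 3622 and 21246 FPKM in LPS, and 18199, 19877, 15519 and 19255 FPKM in LPS+XJDHT. Of the 12 libraries, 6 lay between 3103 and 4598 FPKM and 6 between 15519 and 21246 FPKM, with none between. All Control libraries were low, all LPS+XJDHT libraries were high, and LPS had 2 of each. LPS against Control did not pass (log2 fold change 1.06 ± 0.56, adjusted p = 0.16) but did without LPS replicate 1 (log2 fold change 1.54, adjusted p = 0.037), and LPS+XJDHT against Control passed (log2 fold change 2.16 ± 0.56, adjusted p = 0.01). mt-Atp8, whose coding sequence shares 43 bases with that of mt-Atp6 on the same RNA, was at 22856, 24805, 21101 and 20365 FPKM in Control, 17456, 20895, 18748 and 19496 FPKM in LPS, and 17022, 20572, 20527 and 19090.0 FPKM in LPS+XJDHT. It showed no split, and its lower mean after LPS did not pass (log2 fold change -0.22 ± 0.08, adjusted p = 0.06), although it did without Control replicate 4 (adjusted p = 0.043) and without either LPS+XJDHT replicate 1 or LPS replicate 2 (adjusted p = 0.042 for each), and among genes of at least 5 FPKM (adjusted p = 0.047). Fragments, estimated as FPKM times transcript length and the inferred library size, were for mt-Atp6 0.159 to 0.235 M in the 6 low libraries and 0.798 to 1.11 M in the 6 high ones. On the same strand, mt-Co2 upstream held 1.04 to 1.62 M fragments and mt-Co3, which begins on the last base of mt-Atp6, 0.878 to 1.45 M, with no such gap between libraries. The sources used here do not state how fragments over the shared bases were assigned, and the part of that step in the split was not tested.

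The remaining members were scarce. Atp5s, coupling factor B, was at 2.43, 0.690, 1.69 and 1.38 FPKM in Control, 1.69, 1.45, 1.88 and 2.25 FPKM in LPS, and 1.93, 0.892, 2.37 and 0.952 FPKM in LPS+XJDHT and did not pass (log2 fold change 0.18 ± 0.24, adjusted p = 0.58). Of the members, 4 are processed pseudogenes, and 3 of them were tested, Cox6c2 at a Control mean of 15.4 FPKM, Atp5k-ps2 at 7.70 FPKM and Atp5l2-ps at 2.75 FPKM. In the fit of all 12 libraries without scaling none of these 3 passed in any comparison at an adjusted p below 0.05 with limma (unadjusted p below 0.05 in 1 of 3 after LPS). Cox6c2 lay at the threshold in LPS+XJDHT against Control (adjusted p = 0.05), and its other fits in that comparison are not given here. Atp5k-ps2 passed after LPS in fits that left out LPS+XJDHT replicate 3 or all LPS+XJDHT libraries (adjusted p = 0.028 to 0.045). These pseudogenes may share fragments with their parent genes. Cox6b2, Cox8c and the pseudogene Atp5l-ps1 had values but did not reach 1 FPKM in 4 libraries. Cox8c, a testis isoform of subunit VIII, was listed at 0, 0.436, 0.533 and 0.424 FPKM in Control, 0.811, 1.28, 0.395 and 0.442 FPKM in LPS, and 0 FPKM in each of the 4 LPS+XJDHT libraries. It was listed at 0 in all LPS+XJDHT libraries, where the 7 testis markers with values, Cox8c and Cox6b2 among them, summed to 0.0237 to 0.578 FPKM, against 5.93 to 8.44 FPKM in Control and 3.46 to 15.3 FPKM in LPS. The symbols Atp5c1-ps, Atp5l-ps2, Cox7b2, Uqcrh-ps1 and Uqcrh-ps2 were not analysed here.

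Whether the herbal treatment changes the endotoxin response is asked by setting LPS+XJDHT beside LPS, groups that also differ in their file set. None of the 51 members passed with limma (0 at an adjusted p below 0.05, 3 at an unadjusted p below 0.05) or with limma-voom on recovered fragments (0). Among all genes tested 0.113% were called, all lower, and 4.79% had an unadjusted p below 0.05. The median log2 fold change of the members was -0.07, against 0.03 over all genes. Of the 51 members 43 lay below 0, as did 42.7% of all genes tested. The members with the 3 smallest p-values were Atp5e (log2 fold change -0.17 ± 0.06, adjusted p = 0.99), Cox7b (log2 fold change -0.22 ± 0.10, adjusted p = 0.99) and Uqcrq (log2 fold change -0.16 ± 0.07, adjusted p = 0.99), all with a lower mean under XJDHT. In Atp5e the highest LPS+XJDHT library lay below the lowest LPS library, and it was the one member whose groups did not overlap in that direction, where 0.860% of all genes did so. For the isoform pairs the differences were -0.15 ± 0.10 for Cox7a1, -0.12 ± 0.06 for Cox7a2, -0.18 ± 0.09 for Cox8b, -0.09 ± 0.09 for Cox8a, -0.11 ± 0.08 for Cox6a2, -0.07 ± 0.10 for Cox6a1, -0.26 ± 0.19 for Cox4i1 and 0.38 ± 0.23 for Cox4i2 on the log2 scale, with adjusted p of 0.99 to 1.0. A difference that misses the threshold does not show that the 2 groups are alike.

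LPS+XJDHT against Control uses the same Control libraries as the first comparison, so the 2 sets of calls are not independent. In it 38 members fell and 2, Cox6a1 and mt-Atp6, rose, while 10.7% of all genes fell and 28.5% rose (25.0% and 41.2% of the genes that averaged at least 50 FPKM). The median log2 fold change of the members was -0.37, against 0.19 over all genes. Without LPS+XJDHT replicate 2 it was 38 that fell and 1 that rose, beside 9.94% and 25.9% of all genes. Of the members, 30 fell in both comparisons with Control, Cox4i2 fell in LPS and did not pass in LPS+XJDHT, and 8 fell in LPS+XJDHT and did not pass in LPS, namely Atp5d, Atp5f1, Atp5k, Cox6c, Cox7b, Uqcr10, Uqcr11 and Uqcrq. The difference between the 2 treated groups did not pass for any of these 9. Which of them passed depended on the scaling, the fit and the choice of transcript. With the median ratio Cox4i2 also fell in LPS+XJDHT (adjusted p = 0.014), as it did in a fit of the compared groups alone (adjusted p = 0.024). With the median ratio 7 of the 8, all but Atp5k, also fell in LPS. Atp5d and Uqcrq also passed after LPS with limma-voom (adjusted p = 0.013 and 0.015), and Uqcrq in its most abundant transcript (adjusted p = 0.0073). With genes of the mitochondrial chromosome left out, Atp5d, Uqcr11 and Uqcrq passed after LPS (adjusted p = 0.049, 0.034 and 0.037). In its most abundant transcript Atp5d did not pass in LPS+XJDHT (adjusted p = 0.49). Among members above 50 FPKM in Control, Cox7a1 (log2 fold change -0.83 ± 0.10, adjusted p = 8.9e-05) and Cox8b (log2 fold change -0.75 ± 0.09, adjusted p = 0.0001) were among the largest falls. Atp5k had a lower fold change still (log2 fold change -1.09 ± 0.36, adjusted p = 0.032). Without LPS+XJDHT replicate 4, its low library, it was -0.62 (adjusted p = 0.0051). Atp5k did not pass without Control replicate 1, 2 or 3 (adjusted p = 0.057 to 0.081), in a fit of the compared groups alone (adjusted p = 0.067) or in its most abundant transcript (adjusted p = 0.056). Atp5f1, Atp5mpl, Atp5o and Cox7b also lost their calls without at least 1 library (adjusted p = 0.05 to 0.11), and Atp5o also in its most abundant transcript (adjusted p = 0.15).

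Among genes that build these complexes, a part fell after LPS, where 12.03% of all genes fell and 26.6% rose. Of 6 assembly factors of complex III, 4 fell, among them Uqcc1, needed for cytochrome b (log2 fold change -0.77 ± 0.11, adjusted p = 0.00024), Bcs1l, which inserts the Rieske protein (log2 fold change -0.98 ± 0.24, adjusted p = 0.0073), and Lyrm7, its chaperone (log2 fold change -0.87 ± 0.29, adjusted p = 0.033). Lyrm7 did not pass when Control replicate 1, 2 or 3 or LPS replicate 1, 2 or 4 was left out (adjusted p = 0.065 to 0.093), in a fit of the compared groups alone (adjusted p = 0.063) or with limma-voom (adjusted p = 0.057). Of 23 assembly factors of complex IV tested, 9 fell and 1 rose. Cmc2 fell from 13.6 to 3.77 FPKM (log2 fold change -1.65 ± 0.21, adjusted p = 0.00012), Lrpprc, which stabilises mitochondrial messenger RNA, from 36.4 to 21.2 FPKM (log2 fold change -0.76 ± 0.12, adjusted p = 0.00041) and Cox14 from 82.2 to 61.5 FPKM (log2 fold change -0.41 ± 0.08, adjusted p = 0.0018). Cox18, which inserts mt-Co2 into the membrane, rose from 2.84 to 5.81 FPKM (log2 fold change 0.83 ± 0.21, adjusted p = 0.0077). Of 5 assembly and accessory genes of ATP synthase, 3 fell: Fmc1 (log2 fold change -0.74 ± 0.12, adjusted p = 0.0006), Usmg5 (log2 fold change -0.40 ± 0.10, adjusted p = 0.0068) and Tmem70 (log2 fold change -0.35 ± 0.09, adjusted p = 0.008), the last of which did not pass in its most abundant transcript (log2 fold change -0.43, adjusted p = 0.14).

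The carriers that supply ATP synthase with ADP and phosphate gave calls in both directions. Slc25a4, the ADP/ATP carrier of heart and muscle, fell from 1635 to 1210.4 FPKM (log2 fold change -0.44 ± 0.09, adjusted p = 0.0029), and the phosphate carrier Slc25a3 from 414 to 304 FPKM (log2 fold change -0.46 ± 0.10, adjusted p = 0.0042). In its most abundant transcript Slc25a3 did not pass (log2 fold change -0.82, adjusted p = 0.1). Slc25a5, the ADP/ATP carrier of most tissues, rose from 206 to 253 FPKM (log2 fold change 0.29 ± 0.09, adjusted p = 0.019). This call was lost with median-ratio scaling (log2 fold change 0.09, adjusted p = 0.44) and without LPS replicate 4 (adjusted p = 0.055). In the rest of the chain, 28 of 43 complex I genes fell and none rose, with Ndufb10 (log2 fold change -0.75 ± 0.10, adjusted p = 0.00012), Ndufs4 (log2 fold change -0.54 ± 0.07, adjusted p = 0.00016) and Ndufb9 (log2 fold change -0.34 ± 0.05, adjusted p = 0.00048) at the smallest p. All 4 complex II genes fell, among them Sdhd (log2 fold change -0.46 ± 0.08, adjusted p = 0.00067), Sdhb (log2 fold change -0.37 ± 0.07, adjusted p = 0.002) and Sdhc (log2 fold change -0.39 ± 0.09, adjusted p = 0.0045). Of 15 regulators of respiratory genes tested, 5 fell and 1 rose. Esrra, a nuclear receptor known to activate such genes, fell from 54.0 to 22.7 FPKM (log2 fold change -1.23 ± 0.13, adjusted p = 4e-05), and Tfb1m, a methyltransferase of mitochondrial ribosomal RNA, from 4.60 to 2.22 FPKM (log2 fold change -0.82 ± 0.18, adjusted p = 0.0036). Gabpb1, a subunit of the ETS-family factor GABP, rose from 2.00 to 4.17 FPKM (log2 fold change 0.81 ± 0.19, adjusted p = 0.0055). In LPS+XJDHT against LPS none of the genes in these lists passed with limma. In 1 of 43 complex I genes and 2 of 15 regulators the unadjusted p was below 0.05 (4.79% of all genes). In LPS+XJDHT against Control, 1 of 6 complex III, 7 of 23 complex IV and 3 of 5 ATP synthase assembly genes fell. So did 2 of 3 carriers, 32 of 43 complex I genes, all 4 of complex II and 2 of 15 regulators, where 10.7% of all genes fell. Bcs1l, Lyrm7, Gabpb1 and Slc25a5 did not pass there (adjusted p = 0.13, 0.31, 0.067 and 0.082).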

How the data were processed

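RNA of 12 mouse hearts was depleted of ribosomal RNA before library preparation, per the labels' protocols. The deposited files hold 1 value per transcript, made by the authors and read here as FPKM. Multiplied by transcript length, 98.9% to 99.2% of the low values tested came within 0.1 of a whole multiple of a constant that each library has of its own. Other units scaled by a constant per library would do so too, so this does not settle the unit. The constant was sought within a preset range and taken as the number of fragments. The submitters' processing notes name the build mm10 and limma with no role, while which programs aligned and quantified the reads is not given in the sources used here. FPKM was summed over the 24723 GENCODE transcripts present in all 12 files. The fit took genes that reached 1 FPKM in 4 libraries or more and used log2(FPKM + 1) with limma 3.58.1 (intensity trend, R 4.3.3), 1 mean per group, two-sided, all 12 libraries sharing 1 spread. Replicates are separate mice by their labels. Tables and plots were made with pandas 2.3.3, NumPy 2.4.6 and matplotlib 3.10.9 in Python 3.11.15. The fit was tested on simulated data. Promoter sequences are from RefSeq, build GRCm38.p6.

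The members, gene lists, tests and alternatives were chosen with earlier results of these data known. Values per library are given for all members encoded in mitochondrial DNA, the complex IV isoform pairs, up to 3 members of each role with the smallest p after LPS, members called against the main direction and the 3 smallest p in LPS+XJDHT against LPS, 32 in all. Of the other lists up to 3 genes are named, and Cox18 and Gabpb1 as calls against the main direction. Alternatives were other filters, pseudocounts, scalings, weights, fits and transcript choices, limma-voom on recovered fragments, and leaving out each library. With 4 libraries a group, small changes in variable genes can be missed. Some genes were not analysed here.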

Additional observations from a re-analysis of the deposited data

Results flagged for a closer look

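In 165 groups of 4 libraries (51 tested members and 4 isoform ratios in each of 3 groups), 1 library lay far from the other 3 in 5 cases. Chance alone would flag about 1 in 20 of the groups, so these cases are no more than chance gives. The cases of Cox7a1 and of its ratio below share the same value and are not independent. Cox7a1 in Control replicate 2 was at 878 FPKM, above the other Control libraries at 676 to 706 FPKM, and the ratio of Cox7a2 to Cox7a1 there, 0.342, lay below the 0.422 to 0.424 of the others. Atp5f1 in Control replicate 4 was at 424 FPKM, against 348 to 359 FPKM in the others. Cox7a2l in LPS+XJDHT replicate 2, the library low in Y-linked RNA, was at 91.3 FPKM, against 104 to 106 FPKM. The pseudogene Atp5l2-ps in LPS+XJDHT replicate 3 was at 1.61 FPKM, against 2.80 to 3.03 FPKM.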

How the results depend on the processing

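The number of members called in LPS against Control (32) ranged from 30 to 43 over the alternatives that kept every library and from 25 to 35 when 1 library was left out, the lowest without LPS replicate 1. In LPS+XJDHT against Control (40) these ranges were 35 to 44 and 35 to 41. In LPS+XJDHT against LPS the number was 0 under every alternative run. With median-ratio scaling the median log2 fold change of the members moved to -0.49 in LPS against Control and to -0.61 in LPS+XJDHT against Control. When 1 library was left out, the medians were -0.31 to -0.25 for LPS against Control, -0.38 to -0.33 for LPS+XJDHT against Control and -0.11 to -0.05 for LPS+XJDHT against LPS. Changes of sign were seen for Cox5b in its most abundant transcript, at 0.38 after LPS and 0.30 in LPS+XJDHT against Control, and for the pseudogene Atp5l2-ps, uncalled throughout, at -0.079 with median-ratio scaling and -0.056 to 0.17 when 1 library was left out (lowest without LPS replicate 4). Of 32 calls after LPS, 21 passed under every alternative, and of 40 calls in LPS+XJDHT against Control, 30 did. The cause of these changes was not tested. No paired analysis was possible because the mouse numbers in the labels are not shared between groups. The number of fragments limits the scarce members, such as Atp5s and Cox4i2, more than the others.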
